A study of Mus musculus with 160 samples.

Results

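The SLAM family (signalling lymphocytic activation molecules) is a set of immunoglobulin-like receptors on the surface of blood-derived cells, and its messages were followed here in mouse distal colon. The 8 members, Slamf1, Slamf6, Slamf7, Slamf8, Slamf9, Cd48, Cd84 and Ly9, were taken by gene symbol from the 39179 genes counted in each file. The rule goes by name and uses no measured value, although the family was picked with earlier results of these data known. All 8 had counts in every one of the 160 samples, and all 8 passed the filter on low counts in each fit.

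Most SLAM receptors bind a copy of themselves on a neighbouring cell. Cd48 is the exception, a lipid-anchored protein that serves as the ligand of Cd244a and Cd2. The cytoplasmic tails of Slamf1, Slamf6, Slamf7, Cd84 and Ly9 carry tyrosine switch motifs. These dock small adaptors, EAT-2, SAP (Sh2d1a) or both depending on the receptor, of which SAP engages the kinase Fyn. Slamf8 and Slamf9 have short tails without that motif. In the gut wall the receptors are carried by T cells, B cells, natural killer (NK) cells and phagocytes rather than by the epithelium. The gene cluster is also known for haplotypes that separate C57BL/6 from 129-type strains and change which Slamf6 isoforms are made, a difference that counts per gene do not resolve.

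The study tested whether genes placed at key positions of inflammatory bowel disease networks alter colitis when they are knocked out, using dextran sulfate sodium (DSS), a polymer in drinking water that injures the colonic epithelium. Total RNA of 160 distal colon samples was sequenced after ribosomal RNA depletion, 1 library per sample, from 4 mouse lines with homozygous knockout (KO) and wild-type (WT) animals. The Nckap1l (Hem1) line had 16 KO samples (4 female, 12 male) and 15 WT samples (8 female, 7 male), the Dock2 line 18 KO (8 female, 10 male) and 24 WT (12 female, 12 male), the Gpsm3 line 20 KO and 20 WT, all labelled male, and the Dok3 line 26 KO and 21 WT, all labelled male. The Nckap1l, Dock2 and Gpsm3 lines were labelled C57BL6/J and the Dok3 line 129. DSS was given for 5 days, at 3% in the Dock2 and Gpsm3 lines and 3.5% in the Dok3 line, with no dose in the labels for the Nckap1l line, and tissue was taken on day 10, or on day 12 for the Nckap1l line. The mice were bred from heterozygous parents and housed with mixed genotypes, according to the study's methods, which also describe a lower DSS dose in a first round of Dok3 experiments and, for the Nckap1l line, a dose below that of the other lines. Which samples came from DSS-treated mice and which from untreated mice is not given in the sources used here, so every group below may hold both.

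The smallest library held 4344988 counts, the median one 15989625 and the largest 19993833. Summed over each marker list, epithelial genes gave between 1155 and 8353 CPM (counts scaled to a common library size, normalised by TMM) and smooth muscle genes between 829 and 11190 CPM in every library, both being parts of the colon wall. Skin or striated muscle genes exceeded 1000 CPM in 31 libraries, of which 14 were in the Nckap1l line. The message of the knocked-out gene overlapped between genotypes in every line: its KO and WT medians were 14.8 and 27.2 CPM for Nckap1l, 22.5 and 34.2 CPM for Dock2, 0.572 and 3.21 CPM for Gpsm3, and 3.16 and 3.63 CPM for Dok3. A count over a whole gene does not show a deleted segment, so KO stands for the labelled genotype throughout. In 5 samples of the Dok3 line labelled male, sex-linked genes went against the label. Nothing in the labels ties samples to separate cages or litters, and the p-values below measure the spread between the samples as given.

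All members lay on chromosome 1 (GRCm38) within 1002 kb. Ly9 (ENSMUSG00000004707, 171588624 to 171607410, minus strand), Slamf7 (ENSMUSG00000038179, 171632403 to 171653035, minus strand), Cd48 (ENSMUSG00000015355, 171682009 to 171705258, plus strand), Slamf1 (ENSMUSG00000015316, 171767127 to 171801184, plus strand), Cd84 (ENSMUSG00000038147, 171839697 to 171890718, plus strand) and Slamf6 (ENSMUSG00000015314, 171917515 to 171953170, plus strand) followed one another over 365 kb. After a gap of 522 kb came Slamf9 (ENSMUSG00000026548, 172475358 to 172478575, plus strand) and Slamf8 (ENSMUSG00000053318, 172581758 to 172590568, minus strand). Ly9 overlaps Cd244a on the opposite strand, and the strand setting of the counting is not given in the sources used here, so reads from their shared bases may be credited to either gene. Slamf7 hosts the microRNA gene Mir7683.

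Promoter windows, from 250 bases before to 50 bases after the RefSeq start (GRCm38.p6), were found for 7 members, all but Ly9. They were searched on both strands for GAGGAA, a form of the ETS site, and for a Runx core (TGTGGT). They were also searched for an interferon response element (GAAA repeated after any 2 bases) and a gamma-activated site (TTCNNNGAA). These are motifs of factors that act in leukocytes or in the interferon response, and other forms of the ETS site were not searched for. Only Slamf8 held the interferon element, which 3.44% of all 32851 windows held. GAGGAA was in the windows of Slamf8, Slamf9 and Cd84 (28.3% of all windows) and the Runx core in those of Cd48 and Cd84 (16.8% of all windows). The gamma-activated site was in none (8.30% of all windows). Slamf1, Slamf6 and Slamf7 held none of the 4 motifs, as spelled here, in these windows. The 3 windows printed here belong to Slamf8, Cd84 and Slamf6, whose highest correlations over all samples were with the interferon-gamma response, the macrophage and the B cell list, and capitals mark the matches.
Slamf8 promoter, chr1:172590519-172590818, minus strand: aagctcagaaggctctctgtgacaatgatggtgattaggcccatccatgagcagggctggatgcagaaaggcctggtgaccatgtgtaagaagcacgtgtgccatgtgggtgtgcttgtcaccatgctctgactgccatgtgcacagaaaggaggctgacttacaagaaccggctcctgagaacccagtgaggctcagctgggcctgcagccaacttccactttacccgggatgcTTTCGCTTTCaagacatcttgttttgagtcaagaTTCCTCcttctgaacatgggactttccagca
Cd84 promoter, chr1:171839447-171839746, plus strand: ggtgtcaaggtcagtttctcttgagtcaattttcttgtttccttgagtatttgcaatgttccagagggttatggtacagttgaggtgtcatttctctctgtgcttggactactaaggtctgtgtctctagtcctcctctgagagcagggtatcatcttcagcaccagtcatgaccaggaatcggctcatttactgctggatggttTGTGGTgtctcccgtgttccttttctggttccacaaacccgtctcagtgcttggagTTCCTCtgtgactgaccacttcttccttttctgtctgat
Slamf6 promoter, chr1:171917212-171917511, plus strand: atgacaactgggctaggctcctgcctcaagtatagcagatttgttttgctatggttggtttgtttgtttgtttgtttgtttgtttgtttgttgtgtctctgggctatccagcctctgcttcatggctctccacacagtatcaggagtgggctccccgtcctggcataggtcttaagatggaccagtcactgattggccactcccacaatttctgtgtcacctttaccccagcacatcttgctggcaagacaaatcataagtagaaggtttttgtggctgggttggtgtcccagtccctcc
In the Slamf8 window the interferon element lay on the opposite strand, with its first base 15 bases before the start, and the GAGGAA match lay beyond the start. In the Cd84 window the Runx core began 45 bases before the start. These matches describe the letters of the reference only, and no binding was measured.

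Compared per length of all annotated exons of a gene, Cd48 was the most abundant member and Slamf1 the least. That length reached 10832 bases for Slamf6, and it need not be the length of the transcripts made in colon. By median CPM alone Cd84 (15.9 CPM) was above Cd48 (5.46 CPM). Slamf6 (2.43 CPM) was then above Slamf8 (2.27 CPM) and Slamf9 (2.19 CPM), and Slamf1 (0.791 CPM) was still lowest. Cd48, with a short exon length of 1189 bases, had a median of 4.59 CPM per kb over the 160 samples. Cd84 followed at 2.54 CPM per kb, Slamf9 at 1.67, Ly9 at 1.32, Slamf8 at 0.736, Slamf7 at 0.642, Slamf6 at 0.224 and Slamf1 at 0.129 CPM per kb. Within single samples Cd48 exceeded Cd84 in 156 of 160, and Cd84 exceeded Slamf9 in 140. The next steps were less firm, as Slamf9 exceeded Ly9 in only 106 of 160 samples, Ly9 exceeded Slamf8 in 138, and Slamf8 exceeded Slamf7 in only 106. Slamf7 was above Slamf6 in 148 samples and Slamf6 above Slamf1 in 135. Slamf1 rested on few reads, with a median of 13 counts per sample and a lowest count of 1, whereas Cd84 had a median of 239 counts.

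**Figure D1:**
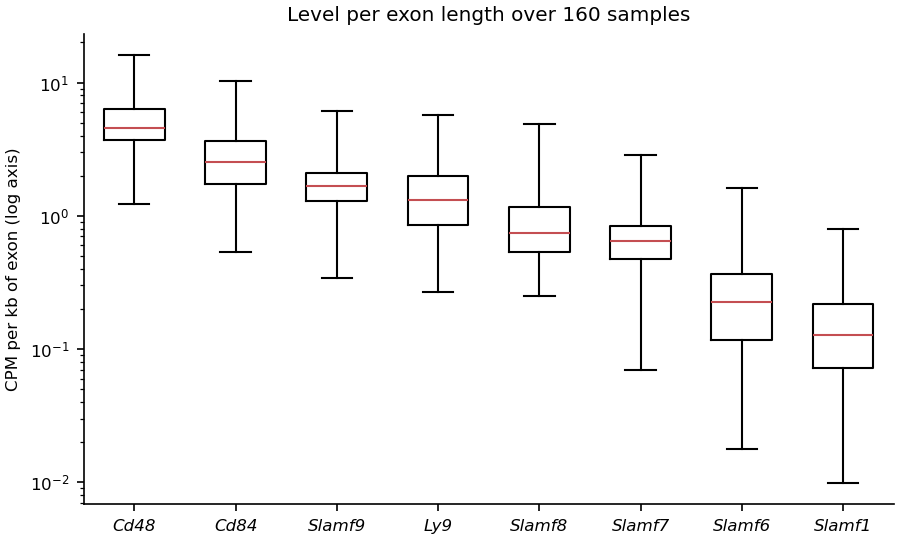
Level of each SLAM receptor as CPM per kb of exon (log axis) over 160 distal colon samples, with the box from the lower to the upper quartile, the line at the median and whiskers to the lowest and highest sample. Cd48 (median 4.59 CPM per kb) sits highest and Slamf1 (0.129 CPM per kb) lowest, and the boxes of Slamf9 and Ly9 and of Slamf8 and Slamf7 overlap.

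Slamf6 (Ly108), which tunes the contacts of T cells with B cells, varied most between groups. Its levels, as CPM given by lowest, median and highest sample, were 0.786, 4.57 and 11.9 in Dok3 WT and 1.57, 3.55 and 12.7 in Dok3 KO. In the C57BL6/J lines they were 0.304, 2.36 and 17.4 in Nckap1l WT and 0.192, 1.15 and 4.37 in Nckap1l KO. They were 0.685, 2.22 and 4.11 in Dock2 WT and 0.431, 1.30 and 3.11 in Dock2 KO. Medians of the groups thus spanned 3.99-fold, from Nckap1l KO to Dok3 WT, yet single samples of every group overlapped those of every other. Gpsm3 WT samples gave 0.614, 1.93 and 5.00 CPM and Gpsm3 KO samples 0.511, 2.09 and 9.56 CPM, with medians between those of the other C57BL6/J groups.

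Slamf1 (CD150), a receptor of activated lymphocytes that also senses bacteria in phagocytes, had group medians from 0.508 CPM in Dock2 KO to 1.16 CPM in Dok3 KO. Its samples ran from 0.119 to 1.40 CPM in Dock2 KO and from 0.0672 to 4.62 CPM in Dok3 KO, so the groups overlapped widely. Ly9 (CD229), found on T and B cells, had medians between 3.54 CPM in Gpsm3 WT and 5.67 CPM in Dok3 WT. Cd48 ranged from a median of 4.75 CPM in Nckap1l KO to 7.19 CPM in Dok3 WT. For both genes the ranges of all 8 groups overlapped.

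Cd84, present on B cells, platelets and phagocytes, varied least between groups, from a median of 14.1 CPM in Gpsm3 WT to 18.1 CPM in Gpsm3 KO, a ratio of 1.29. Within a group it varied far more, from 5.43 to 64.3 CPM in Dok3 KO. Slamf7 (CRACC), which activates NK cells and is abundant on plasma cells, had medians from 2.24 CPM in Nckap1l KO to 3.40 CPM in Nckap1l WT.

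Slamf8 (BLAME), a myeloid member that restrains the oxidative burst of phagocytes, had its highest median in the Nckap1l KO group, with a lowest, median and highest sample of 1.14, 3.89 and 8.46 CPM. In Nckap1l WT the same values were 1.22, 2.73 and 15.2 CPM, and the lowest group median, 1.92 CPM, was that of Dock2 WT. Slamf9, another myeloid member, had its lowest medians in the 129 mice, 1.78 CPM in Dok3 KO and 1.86 CPM in Dok3 WT, against 2.06 to 2.70 CPM in the 6 C57BL6/J groups. For both genes the spread between samples of 1 group exceeded that between group medians.

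**Figure D2:**
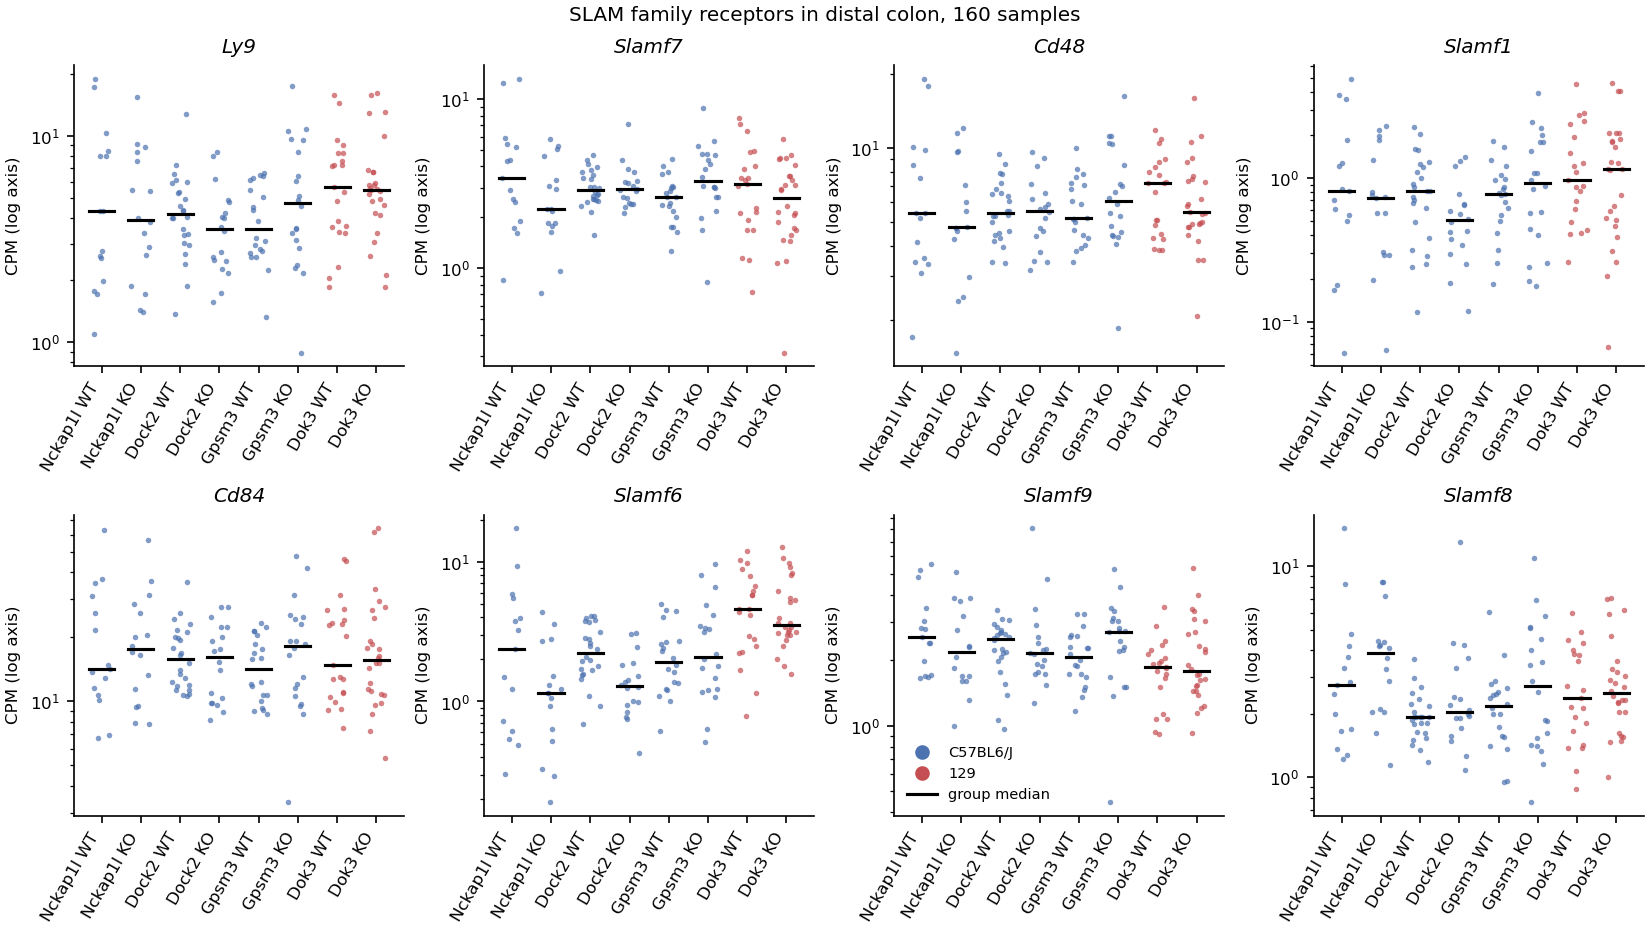
CPM of each SLAM receptor (log axis) in 160 samples by line and genotype, where each point is a sample, blue for C57BL6/J and red for 129, and the bar is the group median. Slamf6 medians are 4.57 and 3.55 CPM in the 129 groups against 1.15 to 2.36 CPM in the C57BL6/J groups, and Slamf9 medians are lowest in the 129 groups.

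Whether loss of the targeted gene changed the receptors was tested in each line with edgeR's quasi-likelihood test over all genes, with Benjamini-Hochberg adjustment and a threshold of 0.05. No member passed in any of the 4 lines. In these whole-tissue libraries fewer cells of a type and less RNA per cell cannot be told apart.

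In the Nckap1l line 0 of 8 members were called, and 0.0% of the 17947 genes tested were. At an unadjusted p under 0.05, 1 member and 807 genes (4.50%) were past the threshold, and DESeq2 and limma-voom also called 0 members. That member was Slamf6, with a log2 fold change of -1.38 (SE 0.552, unadjusted p = 0.0183, adjusted p = 1.0) and 4 of 16 KO samples above the WT median. All 10 listed B cell genes had an unadjusted p under 0.05, none of them called, with a median log2 fold change of -2.26, and their summed level had a median of 7.38 CPM in KO (3.64 to 120.7 CPM) against 52.2 CPM in WT (4.62 to 468.6 CPM). The samples of this line were cut at the largest gap in their mean log2 CPM over the B cell list, a cut read from these data. It gave 17 samples at or under 0.359, of which 12 were KO, and 14 samples at or above 2.05, of which 4 were KO. Those 4 KO samples all came from the same block of sample numbers, so the cut does not part genotype from block. Differences between or within these sets were not tested. Slamf6 had a median of 0.633 CPM in the first set and 3.66 CPM in the second. As Slamf6 was correlated with the list used for the cut (r = 0.876 in this line), that gap is not a separate result. Within the first set the Slamf6 median was 0.999 CPM in 12 KO and 0.542 CPM in 5 WT samples. Within the second set it was 3.13 CPM in 4 KO and 3.84 CPM in 10 WT samples. With the mean of the B cell list as a covariate, an alternative chosen after the data were seen, its log2 fold change was 0.71 (SE 0.349, adjusted p = 0.528), and over 10 alternatives its adjusted p ran from 0.265 to 1.0. With the blocks of sample numbers as a covariate the log2 fold change was -1.15. Slamf7 had a log2 fold change of -0.68 (SE 0.358, adjusted p = 1.0), and the median over the 8 members was -0.27, beside 0.01 over all genes tested. The direction of all 8 members depended on the alternative, with log2 fold changes from -1.31 to 0.45 for Slamf7, from -1.30 to 1.19 for Ly9 and from -1.07 to 0.80 for Cd84, none of them called.

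In the Dock2 line 0 of 8 members were called against 0.034% of all genes. DESeq2 and limma-voom called 0 members as well, and 3 members had an unadjusted p under 0.05, with 5.10% of all genes. Slamf6 again had the smallest p, at a log2 fold change of -0.72 (SE 0.215, unadjusted p = 0.00171, adjusted p = 0.317), with 3 of 18 KO samples above the WT median. It was called, at -0.82 (SE 0.190, adjusted p = 0.0375), when 2 surrogate variables were added, and at -0.87 (SE 0.212, adjusted p = 0.0460) without the libraries rich in skin or striated muscle, an alternative also chosen after the data were seen. All 10 B cell genes again had an unadjusted p under 0.05 with none called, with a median log2 fold change of -0.87 and summed medians of 34.7 CPM in KO (15.4 to 94.0 CPM) against 70.8 CPM in WT (7.54 to 139.6 CPM). With the B cell list as a covariate the Slamf6 value was -0.18 (SE 0.166, adjusted p = 0.753), and over 10 alternatives the adjusted p ran from 0.0375 to 0.891. Slamf1 had a log2 fold change of -0.58 (SE 0.283, unadjusted p = 0.0453, adjusted p = 0.966). Slamf8 had a positive one, 0.48 (SE 0.202, unadjusted p = 0.0232, adjusted p = 0.861), with 1 KO sample at 13.04 CPM where the highest WT sample had 3.62 CPM. Of 7 interferon-gamma response genes tested, 5 had an unadjusted p under 0.05 and 0 were called, with a median log2 fold change of 0.46, and their part in the Slamf8 value was not tested.

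In the Gpsm3 line 0 of 8 members were called against 0.00569% of all genes, with 3 members and 4.86% of all genes under an unadjusted p of 0.05, and 0 members by DESeq2 or limma-voom. All 8 log2 fold changes were positive, from 0.29 for Cd48 to 0.56 for Slamf8, with a median of 0.45 beside 0.00 over all genes tested. The members under that p were Slamf8 (0.56, SE 0.262, adjusted p = 0.936), Ly9 (0.54, SE 0.255, adjusted p = 0.936) and Slamf7 (0.47, SE 0.184, adjusted p = 0.936). All 8 pan-leukocyte genes were positive too, with a median of 0.48. So were the 7 interferon-gamma response genes tested, with a median of 0.65, 5 under an unadjusted p of 0.05 and 0 called, and their part in the Slamf8 value was not tested. With the mean of the pan-leukocyte list as a covariate, Slamf8 had a value of 0.11 and Ly9 of 0.04. Over 10 alternatives, with 0 calls, Slamf7 kept values from 0.27 to 0.49, while Slamf8 ran from 0.11 to 0.58 and Ly9 from 0.04 to 0.60.

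In the Dok3 line, where KO and WT share the 129 strain, 0 of 8 members were called against 0.0% of all genes, 0 had an unadjusted p under 0.05 beside 2.19% of all genes, and DESeq2 and limma-voom called 0. Log2 fold changes lay between -0.28 for Slamf7 (SE 0.234, adjusted p = 1.0) and 0.23 for Slamf9 (SE 0.171, adjusted p = 1.0). Slamf6 had a value of -0.05 (SE 0.256), with B cell list sums of 78.6 CPM in KO and 94.3 CPM in WT.

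**Figure D3:**
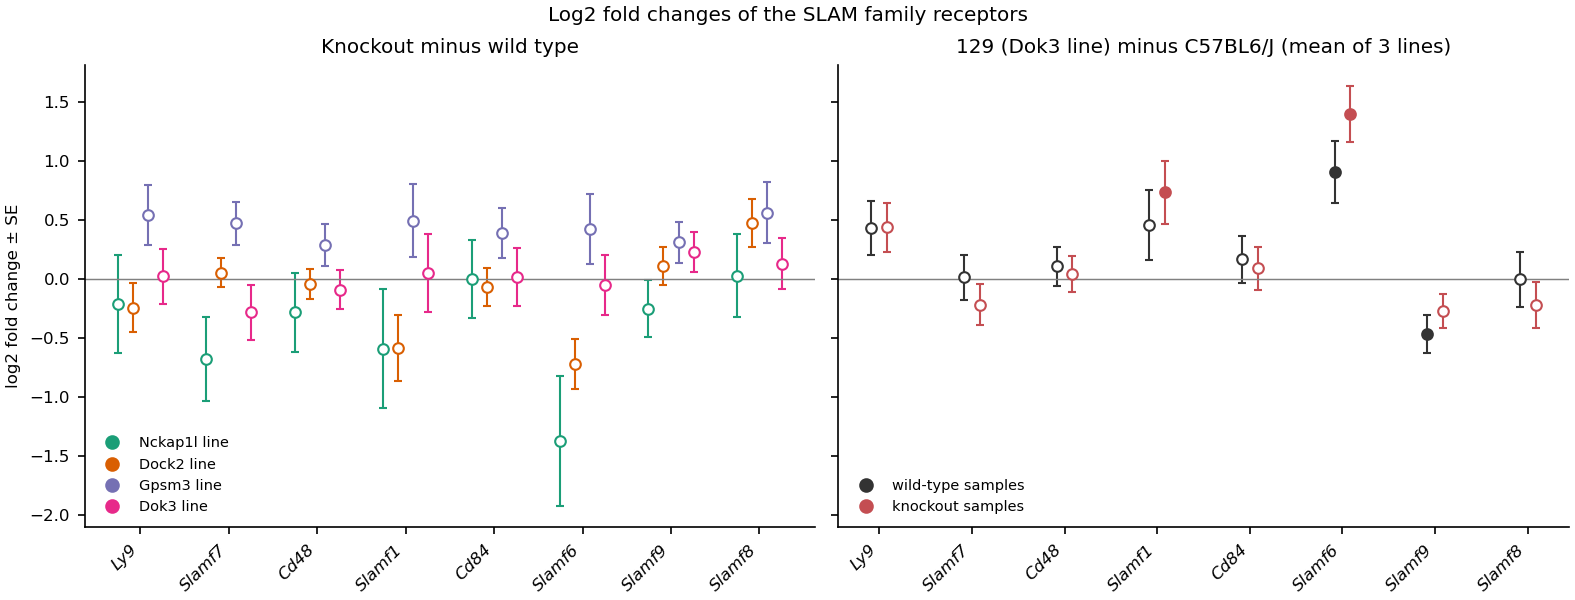
Log2 fold change of each SLAM receptor with its standard error (bars), KO minus WT in 4 lines (left) and 129 minus the mean of 3 C57BL6/J lines in WT and KO samples (right), where filled points have an adjusted p under 0.05 and open points do not. No KO contrast is filled, while Slamf6 is filled at 0.91 and 1.40 in the strain contrasts.

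The strain contrast set the Dok3 line (129) against the mean of the 3 C57BL6/J lines in 1 fit of all 160 samples, separately in WT and in KO mice. Only the Dok3 line is 129, so strain, line, DSS dose and handling cannot be told apart, and reads of 129 mice were aligned to the C57BL/6J reference mm10. In the KO samples the knocked-out gene differs between the lines as well, and it cannot be told apart from strain either.

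In WT samples 2 of 8 members were called, while 18.1% of all 19849 genes were. Slamf6 was higher in 129, with a lowest, median and highest sample of 0.786, 4.57 and 11.9 CPM in 21 mice against 0.304, 2.09 and 17.4 CPM in 59 C57BL6/J mice. Of the 129 samples 18 of 21 lay above the C57BL6/J median, although the ranges overlapped. The log2 fold change was 0.91 (SE 0.261, edgeR adjusted p = 0.00747). Slamf9 was lower in 129, with 0.914, 1.86 and 3.51 CPM against 0.968, 2.31 and 5.53 CPM and a log2 fold change of -0.46 (SE 0.159, edgeR adjusted p = 0.0284). Only 4 of 21 samples of the 129 line exceeded the C57BL6/J median of Slamf9. The other members had log2 fold changes from 0.00 for Slamf8 to 0.46 for Slamf1. In the same contrast all 10 T cell genes had positive log2 fold changes, with a median of 0.57 and 3 called, and 4 of 8 plasma cell genes were called higher in 129. Over all samples Slamf6 had r = 0.756 with the T cell list and 0.536 with the plasma cell list, and the part of those lists in its strain difference was not tested. With the B cell list its r was 0.858, and the median sum of that list was 94.3 CPM in Dok3 WT. It was 52.2 CPM in Nckap1l WT, 70.8 CPM in Dock2 WT and 65.4 CPM in Gpsm3 WT, and values with the B cell list as a covariate are given below.

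In KO samples 2 of 8 members were called, while 18.9% of all genes were. Slamf6 was again higher in 129, and here all 26 samples (1.57, 3.55 and 12.7 CPM) lay above the C57BL6/J median of 1.34 CPM, although the highest of 54 C57BL6/J samples reached 9.56 CPM. Its log2 fold change was 1.40 (SE 0.235, edgeR adjusted p = 6.42e-07). Slamf1 was called with a log2 fold change of 0.74 (SE 0.268, edgeR adjusted p = 0.0389), from 1.16 CPM at the 129 median against 0.618 CPM. This call was lost with limma-voom, among males only, with the looser filter of at least 1 count, against the Nckap1l or the Gpsm3 line alone and in 1 of the 2 Dok3 blocks. All 10 B cell genes were called higher in the 129 KO samples, with a median log2 fold change of 1.21, and with the B cell list as a covariate the Slamf1 value turned to -0.36 (SE 0.194, adjusted p = 0.153), in a range of adjusted p over 15 alternatives from 0.00324 to 0.632. Median sums of the B cell list were 78.6 CPM in Dok3 KO and 81.3 CPM in Gpsm3 KO, but 34.7 CPM in Dock2 KO and 7.38 CPM in Nckap1l KO.

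The call of Slamf6 held in 13 of 15 alternatives in WT samples (adjusted p from 2.69e-04 to 0.514) and in 14 of 15 in KO samples (adjusted p from 1.7e-13 to 0.111). Against single C57BL6/J lines its log2 fold change in WT samples was 0.45 against Nckap1l (adjusted p = 0.514), 1.10 against Dock2 (adjusted p = 0.0138) and 1.17 against Gpsm3 (adjusted p = 0.00306). In KO samples the values were 1.74 against Nckap1l (adjusted p = 4.04e-05), 1.77 against Dock2 (adjusted p = 3.07e-05) and 0.69 against Gpsm3 (adjusted p = 0.111). Dok3 samples fell into 2 runs of sample numbers, of 30 and 17, used as blocks. The WT value was 0.71 (adjusted p = 0.130) with the first block and 1.18 (adjusted p = 0.0177) with the second, and the KO value 1.28 (adjusted p = 9.37e-05) and 1.61 (adjusted p = 1.91e-04). With the B cell list as a covariate Slamf6 remained called, at 0.56 in WT (SE 0.138, adjusted p = 9.12e-04) and 0.48 in KO (SE 0.135, adjusted p = 0.00372). With the pan-leukocyte list as a covariate the values were 0.76 and 1.35.

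Slamf9 was not called in KO samples (-0.27, SE 0.142, adjusted p = 0.180). Nor was it called in WT samples against the Dock2 or the Gpsm3 line alone, among males only or with the first Dok3 block. Ly9 had log2 fold changes of 0.43 in WT (adjusted p = 0.174) and 0.44 in KO (adjusted p = 0.138), which passed the threshold once the pan-leukocyte list was a covariate, at 0.22 (adjusted p = 0.0331) and 0.27 (adjusted p = 0.00232). Over 15 alternatives the adjusted p of Ly9 ran from 0.0125 to 0.922 in WT and from 3.19e-04 to 0.768 in KO. The difference between the strain contrast in KO and that in WT was called for 0 of 8 members and for 0.0907% of all genes. No member had an unadjusted p under 0.05 for it, as against 3.83% of all genes, and DESeq2 and limma-voom called 0. For Slamf6 that difference was 0.49 (SE 0.348, unadjusted p = 0.157, adjusted p = 0.997).

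How far lines of the same labelled strain differ was read from the WT groups. Between Nckap1l and Gpsm3 WT mice, 3 of 8 members were called, beside 12.0% of all genes. All 3 were higher in Nckap1l: Slamf8 by 0.91 (SE 0.286, edgeR adjusted p = 0.0307), Slamf7 by 0.78 (SE 0.256, edgeR adjusted p = 0.0360) and Slamf9 by 0.61 (SE 0.211, edgeR adjusted p = 0.0434) on the log2 scale. Between Nckap1l and Dock2 WT mice, 1 of 8 was called (7.63% of all genes), Slamf8, higher by 0.93 (SE 0.258, edgeR adjusted p = 0.0207). In Dock2 against Gpsm3 WT mice 0 of 8 were called (0.267% of all genes), 0 had an unadjusted p under 0.05 beside 4.97% of all genes, and the other tools called 0. The calls in the Nckap1l comparisons were lost with limma-voom, in males only and with the pan-leukocyte or neutrophil list as a covariate. The 8 pan-leukocyte genes had a median of 0.77 in Nckap1l against Gpsm3, with 1 of them called, and their part in these results was not tested beyond that covariate. Of 7 interferon-gamma response genes tested, 1 was called higher in Nckap1l than in Gpsm3 (median 0.66) and 5 higher than in Dock2 (median 0.90), and their part in the Slamf8 calls was not tested. Leaving out the libraries rich in skin or striated muscle removed 7 of the 15 Nckap1l WT libraries. All 8 members were then called higher in Nckap1l than in Gpsm3 WT mice, beside 3211 of 19506 genes. Their values ran from 0.71 for Slamf9 to 1.38 for Slamf8. Against Dock2, 4 members (Cd48, Slamf6, Slamf7 and Slamf8) were then called higher, beside 1222 of 19506 genes. The Nckap1l tissue was taken on a later day and, by the study's methods, after a lower DSS dose, neither of which can be told apart from the line.

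Female and male mice were compared within the Nckap1l and Dock2 lines. In the Nckap1l line 0 of 8 members were called (0.178% of all genes), and 0 had an unadjusted p under 0.05, as against 15.7% of all genes. A block of sample numbers in this line, with 9 samples, held males only. With the blocks as a covariate Slamf1 moved from 0.01 to 1.15 (SE 0.623, edgeR adjusted p = 0.690). Slamf6 moved from -0.07 to 0.93 (SE 0.705, edgeR adjusted p = 0.777), and no member was called. In the Dock2 line 0 of 8 were called (9.75% of all genes), with 2 members and 25.6% of all genes under an unadjusted p of 0.05. Those 2 were Slamf8 (-0.45, SE 0.203, adjusted p = 0.147) and Slamf9 (-0.35, SE 0.163, adjusted p = 0.173), given as female minus male. Of 7 interferon-gamma response genes 2 were called lower in females, with a median of -0.42, and their part in the Slamf8 value was not tested. DESeq2 and limma-voom called 0 in both lines. Without the libraries rich in skin or striated muscle, Slamf8 (-0.62) and Cd48 (-0.39) were called lower in Dock2 females, beside 3202 of 17525 genes called.

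Across mice, the marker list with the highest correlation was not the same for every receptor, and differences between correlations were not tested. Correlations were taken over 160 samples on log2 CPM after the mean of each line, genotype and sex had been removed, with 92 relations tested by permutation within those groups. All 28 pairs of receptors were positively correlated (Pearson's r from 0.306 to 0.894, permutation adjusted p at most 2.43e-04). The tightest pairs were Cd48 with Ly9 (r = 0.894, rho = 0.893), Cd84 with Ly9 (r = 0.887, rho = 0.882) and Cd48 with Cd84 (r = 0.861, rho = 0.852), and the loosest Slamf1 with Slamf9 (r = 0.306, rho = 0.260). The last pair ranged from -0.0140 to 0.670 between lines.

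Over all samples Slamf6 and Slamf1 followed B cell genes most closely of the 8 lists. For Slamf6, r was 0.858 and rho 0.853 (permutation adjusted p = 1.12e-05, resting on the smallest p that 100000 resamples can give, 1e-05), and r was 0.844 without the 2 samples farthest from the median of the list. It was between 0.728 and 0.876 within lines and between 0.728 and 0.946 within blocks of sample numbers. In the Nckap1l line the 2 sets given above were cut on this same list, so r within a set rests on a narrowed range of it. It was 0.946 in the 14 samples of the upper set and 0.294 in the 17 of the lower. Over the 129 samples of the other lines r was 0.847. Slamf1 with the B cell list had r = 0.783 and rho = 0.782 (0.768 without the 2 farthest, 0.672 to 0.823 within lines). Its r with the T cell list was close to that, at 0.743.

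Cd84 tracked phagocyte genes, with r = 0.929 and rho = 0.911 to the macrophage list (0.922 without the 2 farthest, 0.910 to 0.957 within lines) and r = 0.842 to the neutrophil list, but r = 0.0381 to the plasma cell list (permutation adjusted p = 0.657). Cd48 and Ly9 were closest to the T cell list, with r = 0.860 and 0.853, and to macrophage genes at 0.786 and 0.798. Over all samples Slamf7 was closest to the T cell list as well (r = 0.688, rho = 0.684, 0.595 to 0.891 within lines) and, with Slamf6, closest of the members to the plasma cell list, at 0.539 and 0.536.

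Slamf8 stood with the interferon-gamma response, with r = 0.842 and rho = 0.815 (permutation adjusted p = 1.12e-05, r = 0.825 without the 2 farthest), and it varied little between lines, from 0.832 to 0.863. Its r to NK and cytotoxic genes was 0.789 and to B cell genes 0.396. Slamf9 was closest to macrophage genes (r = 0.675, rho = 0.651, 0.647 without the 2 farthest and 0.477 to 0.845 within lines) and had no relation past the threshold with the B cell list (r = 0.147, adjusted p = 0.0781) or the plasma cell list (r = 0.0222, adjusted p = 0.792). In all, 89 of the 92 relations had a permutation adjusted p under 0.05. The list closest to a member was not the same in every line except for Cd84 and Slamf6. For Slamf7 it was the dendritic cell list in Dock2 (0.693) and Gpsm3 (0.688) and the plasma cell list in Dok3 (0.665). In the Nckap1l line the T cell list was closest to Slamf8 (0.895) and the dendritic cell list to Slamf1 (0.859). The macrophage list was closest to Cd48 in Gpsm3 (0.866) and to Ly9 in Dock2 (0.801) and Gpsm3 (0.845), and in Dock2 the NK and cytotoxic list was closest to Slamf9 (0.614). The points share their libraries, and a member and a list in the same sample share its leukocyte RNA.

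**Figure D4:**
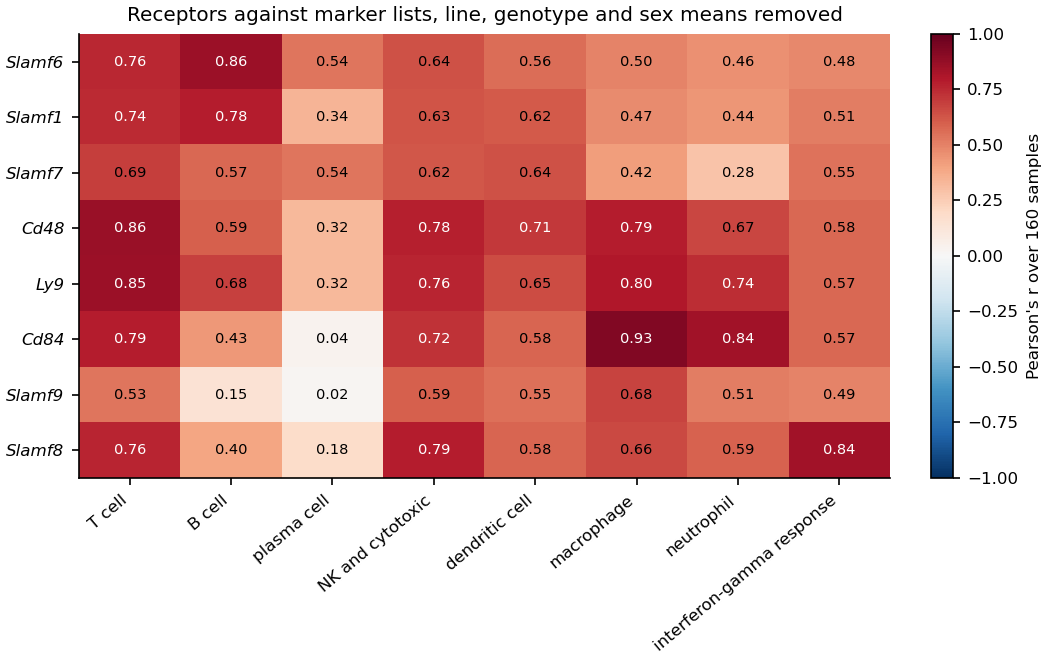
Pearson's r between each SLAM receptor (vertical) and the mean log2 CPM of each marker list (horizontal) over 160 samples, with line, genotype and sex means removed and colour from -1 (blue) to 1 (red). The 4 highest values are Cd84 with macrophage genes (0.929), Cd48 with T cell genes (0.860), Slamf6 with B cell genes (0.858) and Ly9 with T cell genes (0.853), followed by Slamf8 with the interferon-gamma response and Cd84 with neutrophil genes (0.842 each).

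**Figure D5:**
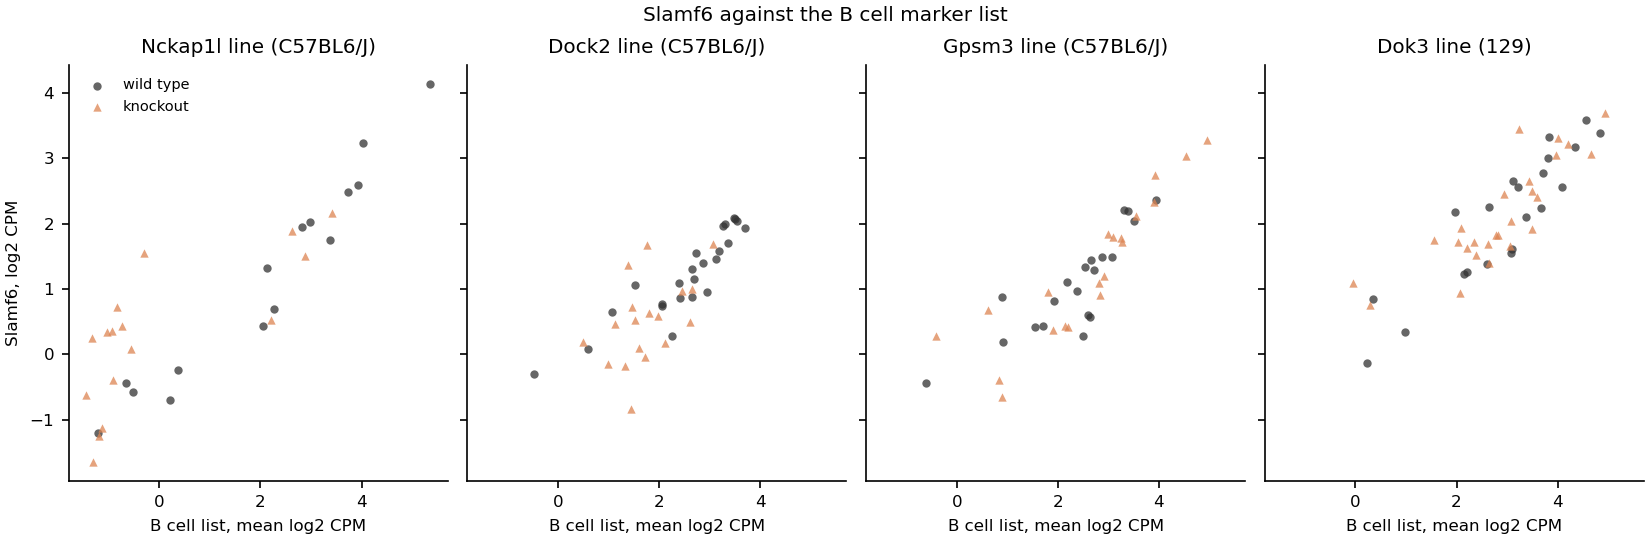
Slamf6 log2 CPM (vertical) against the mean log2 CPM of the B cell list (horizontal) in each of 160 samples by line, circles for WT and triangles for KO. Cut at the largest gap on the B cell axis, Nckap1l samples give 2 sets, 12 of the 17 in the lower set being KO. The KO samples of the upper set all came from the same block of sample numbers. The r values within lines lie between 0.728 and 0.876.

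The protein-coding genes most like each member, of 15907 compared over the same 160 samples, are given as a description. For Slamf8 they were the interferon-induced GTPases Gbp9 (r = 0.853), Ifi47 (r = 0.848) and Gbp8 (r = 0.840). For Cd84 they were the lysozyme gene Lyz2 (r = 0.953), the lysosomal adaptor Laptm5 (r = 0.951) and the phagocyte myosin Myo1f (r = 0.942). Slamf9 was most like Pld4 (r = 0.733), the macrophage growth factor receptor Csf1r (r = 0.713) and the macrophage antigen Adgre1 (r = 0.708). Slamf6 was nearest to Rasal3 (r = 0.924), Traf3ip3 (r = 0.924) and the kinase Map4k1 (r = 0.912), and Slamf1 to the interleukin-21 receptor Il21r (r = 0.864), Rasal3 (r = 0.863) and Tbc1d10c (r = 0.854). Ly9 was nearest to the leukocyte phosphatase Ptprc (r = 0.958), Arhgap45 (r = 0.955) and Dock2 (r = 0.952), and Cd48 to the same 3 genes at 0.896 for Dock2, 0.892 for Ptprc and 0.891 for Arhgap45. Ptprc and Laptm5 are also pan-leukocyte list genes, Csf1r and Adgre1 macrophage list genes and Cd28 a T cell list gene, and Dock2 is the gene knocked out in 1 of the lines. For Slamf7 the likest genes were the T cell costimulator Cd28 (r = 0.753), Wdfy4 (r = 0.739) and Kmo (r = 0.730).

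Of 20 genes listed as ligands, adaptors and effectors of SLAM signalling, 17 were tested: the Cd48 receptors Cd2 and Cd244a, the kinases Fyn, Lck, Csk and Prkcq, the phosphatases Ptpn6, Ptpn11 and Inpp5d, the effectors Vav1, Plcg1, Plcg2 and Bcl10, and the autophagy genes Becn1, Uvrag, Pik3c3 and Pik3r4. The edgeR test called 0 of the 17 in the KO contrast of each line, where 4 of the 17 in Dock2 (Cd2, Prkcq, Plcg2 and Ptpn6), 6 in Gpsm3 (Cd244a, Inpp5d, Vav1, Plcg2, Fyn and Pik3c3) and 0 in the other lines had an unadjusted p under 0.05, beside 5.10% of all genes in Dock2 and 4.86% in Gpsm3, and the medians of their log2 fold changes lay between -0.08 and 0.22. In the strain contrast of WT mice 4 were higher in 129 and 1 lower, while 18.1% of all genes were called. The 4 were the kinases Lck (0.50, SE 0.181, edgeR adjusted p = 0.0407) and Fyn (0.30, SE 0.105, edgeR adjusted p = 0.0328), which act behind SAP, and the phospholipases Plcg2 (0.41, SE 0.133, edgeR adjusted p = 0.0201) and Plcg1 (0.25, SE 0.0700, edgeR adjusted p = 0.00625). The autophagy gene Becn1 was lower, by a small log2 fold change (-0.08, SE 0.0284, edgeR adjusted p = 0.0323).

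In KO mice 3 of the 17 were called in the strain contrast, all higher in 129, a share near the 18.9% of all genes called there. They were the Cd48 receptor Cd2 (0.64, SE 0.201, edgeR adjusted p = 0.0144), Plcg2 (0.37, SE 0.122, edgeR adjusted p = 0.0218) and the inhibitory phosphatase Ptpn6 (0.36, SE 0.111, edgeR adjusted p = 0.0111). Cd244a, the other receptor of Cd48, had 0.30 in WT (adjusted p = 0.443) and 0.20 in KO (adjusted p = 0.644). Sh2d1a and Sh2d1b2 had too few counts to be tested, with a median of 0.123 CPM each over the 160 samples, and Sh2d1b1 is not analysed here. Between WT groups of the C57BL6/J lines, 4 of the 17 were called in Nckap1l against Gpsm3, beside 12.0% of all genes. Higher in Nckap1l were Prkcq (1.11, SE 0.303, edgeR adjusted p = 0.0156), Fyn (0.58, SE 0.144, edgeR adjusted p = 0.00827) and Uvrag (0.23, SE 0.0776, edgeR adjusted p = 0.0416), and Pik3c3 was lower (-0.42, SE 0.111, edgeR adjusted p = 0.0124). In Nckap1l against Dock2, 2 of the 17 were called, beside 7.63% of all genes, Fyn (0.42) and Uvrag (0.26), both higher in Nckap1l, with the same Nckap1l samples in both comparisons.

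The members share their stretch of chromosome 1, taken from 250 kb before the first to 250 kb after the last member, with 44 other genes. Of these, 32 were tested in the strain contrast. In WT mice 10 of the 32 (31.2%) were called, beside 18.1% of all genes, 6 of them higher and 4 lower in 129. In KO mice 9 (28.1%) were called, beside 18.9% of all genes, 5 higher and 4 lower. The 5 with the smallest p in WT mice were Atp1a4, a sodium pump subunit of sperm (2.80, SE 0.419, edgeR adjusted p = 3.63e-08), Gm2710 (-0.43, SE 0.0768, edgeR adjusted p = 6.49e-06), Igsf8 (0.21, SE 0.0509, edgeR adjusted p = 0.00117), the secretase subunit Ncstn (-0.16, SE 0.0397, edgeR adjusted p = 0.00129) and the coatomer subunit Copa (-0.16, SE 0.0408, edgeR adjusted p = 0.00297). Atp1a4 was near the lower limit of detection, with a median of 0.0576 CPM in C57BL6/J and 0.429 CPM in 129 WT mice. In the KO mice these genes had log2 fold changes of 2.73, -0.38, 0.17, -0.21 and -0.16.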

How the data were processed

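Gene-level read counts were deposited by the authors, 1 table of raw counts per sample over 39179 Ensembl genes, made per the labels and the study's methods from ribosomal RNA-depleted, stranded libraries with STAR, featureCounts (Subread) and the mm10 genome. Versions and the strand setting of the counting are not given in the sources used here. Symbols and positions came from the GENCODE annotation of GRCm38 (release M21), which named 37607 of the genes (95.99%) and 99.67% of the counts.

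Low-count genes were filtered by edgeR's filterByExpr at its defaults, library sizes were scaled by TMM (factors 0.90 to 1.08), and edgeR 4.0.16 (quasi-likelihood F test, R 4.3.3) was fitted over all genes, with p-values adjusted by the Benjamini-Hochberg method and a threshold of 0.05. Knockout and wild type were compared within each line, with sex as a covariate where both sexes were present, and strain and line contrasts came from 1 fit of all 160 samples. SE was derived from the fold change and the F statistic. DESeq2 1.42.0, limma 3.58.1 (voom) and sva 3.50.0 served the alternatives. The edgeR, DESeq2 and voom tests were first run on simulated counts, with group terms only and no covariates. Depth ran from 4344988 to 19993833 counts per sample, so a gene at a median of 13 counts, such as Slamf1, carries a larger counting error than one at 239. CPM was computed on TMM-scaled library sizes, and log2 CPM used a prior count of 2. Correlations were tested with 100000 permutations within line, genotype and sex. The blocks of sample numbers are runs of consecutive numbers in the sample titles and are not named as batches by the labels.

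Members and gene lists were chosen with earlier results of these data known. Genes named are the 8 members, the signalling list, the 3 protein-coding genes most correlated with each member, and 5 neighbouring genes. The last are those with the smallest p in the wild-type strain contrast between 250 kb before the first and 250 kb after the last member. Marker lists are reported as counts, medians and sums. The main comparisons used every sample.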

Additional observations from a re-analysis of the deposited data

How the results depend on the processing

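No paired analysis was possible because the labels give no replicate number that groups share. No member was called in the Nckap1l, Gpsm3 or Dok3 knockout contrasts under any alternative run. In the Dock2 knockout contrast 1 member (Slamf6) was called with 2 surrogate variables (58 of 17648 genes called). Without libraries rich in skin or striated muscle 1 (Slamf6) was called (79 of 17525 genes), against 0 otherwise. The 2 members called in the wild-type strain contrast became 1 against the Dock2, the Gpsm3 or the Nckap1l line alone and 1 in males only, and 0 with the first Dok3 block, and 3, with Ly9 added, with the neutrophil or the pan-leukocyte covariate. Of 19849 genes, 4768 were called there with the neutrophil and 4229 with the pan-leukocyte covariate. Ly9 was also added, for 3 in all, in the knockout strain contrast with the neutrophil covariate (4755 of 19849 genes called) and against the Dock2 line alone (2568 of 19849). The 2 called in the knockout strain contrast became 1 against the Nckap1l line alone, with the first Dok3 block, with at least 1 count, with limma-voom and in males only, 0 against the Gpsm3 line alone, 4 with the B cell covariate (6255 of 19849 genes called) and 5 with the pan-leukocyte covariate (5203 of 19849), where 3754 genes were called without a covariate. In the latter contrast Slamf1 reversed to -0.36 with the B cell covariate and Cd84 to -0.21 with the pan-leukocyte covariate.

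The 3 members called between Nckap1l and Gpsm3 wild type became 1 with at least 1 count, 0 with limma-voom, in males only or with the neutrophil or pan-leukocyte covariate, and 8 without libraries rich in skin or striated muscle (3211 of 19506 genes called). Between Nckap1l and Dock2 wild type the count of 1 became 0 with limma-voom, in males only or with either of those covariates, and 4 without those libraries (1222 of 19506 genes called). Between Dock2 females and males the count of 0 became 1 with the pan-leukocyte covariate (1848 of 17648 genes called), where Ly9 reversed to 0.29. It became 2 (Cd48 and Slamf8) without those libraries (3202 of 17525 genes called). The B cell covariate and the removal of skin and muscle libraries were chosen after seeing the data, and the cause of these shifts was not tested.

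In all, 1032 values of members were recomputed. Of 100 that were called before, 67 kept their call, and 23 others became called. Of 909 uncalled values, 133 changed sign. Of 368 recomputed correlations none moved by over 0.2 and none past the threshold changed sign, while 1 relation short of it did. Low counts limit Slamf1 most.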
